A study of Rattus norvegicus with 7 samples.

Results

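The dual specificity phosphatases that act on mitogen-activated protein (MAP) kinases were followed in ROE2, a rat oral epithelial cell line, during exposure to sodium fluoride (NaF). The family was given as 10 genes, Dusp1, Dusp2, Dusp4, Dusp5, Dusp6, Dusp7, Dusp8, Dusp10, Dusp14 and Dusp16, and every probe set annotated to 1 of these symbols alone was taken. This gave 12 probe sets for 9 genes, among 31042 probe sets tested and 14217 named genes. Dusp16 had no probe set under its symbol in the annotation used and was not analysed here.

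Cells were exposed to 2 mM NaF for 3, 6 and 12 h, or to vehicle, which was sterilized water at 1% v/v, for 0, 3, 6 and 12 h. ROE2 is an immortalized line from the tongue of 18-day-old Wistar fetuses with a transgene for the temperature-sensitive large T antigen of simian virus SV40, which the cells of both treatments hold. All cells were grown at 33 °C, kept for 24 h at 37 °C and then exposed at 37 °C. Every array, from the Affymetrix rat genome series, held RNA pooled from 3 independent experiments, with 1 array per treatment and time, 3 of NaF and 4 of vehicle.

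MAP kinases such as ERK, JNK and p38 are switched on by phosphorylation of a threonine and a tyrosine in the same loop, and dual specificity phosphatases remove both phosphates. Several of these phosphatases are themselves transcribed in response to MAP kinase signaling and so form negative feedback. Dusp1, Dusp2, Dusp4 and Dusp5 are inducible nuclear enzymes, Dusp6 and Dusp7 are cytosolic and prefer ERK, Dusp8, Dusp10 and Dusp16 act mainly on JNK and p38, and Dusp14 is a small atypical member.

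The values are log2 signals, on which a difference of 1 is a doubling. Medians of the 7 arrays lay between 5.33 and 5.35. Of the markers measured, 8 of 9 epithelial genes reached a log2 signal of 7 on an array, Krt18 being the exception, against 0 of 7 fibroblast, 1 of 5 leukocyte (Cd14), 0 of 4 endothelial and 1 of 5 skeletal muscle genes (Myh1). Cd14 had signals of 8.78 to 9.36 on the NaF arrays and 9.99 to 10.11 on the vehicle arrays, and Myh1 10.17 to 10.44 on the NaF arrays and 9.48 to 9.86 on the vehicle arrays, and their part in the results was not tested. Of the phosphatase probe sets 8 of 12 reached 7, against 37.8% of all probe sets. Those that did not were Dusp2, Dusp4, Dusp10 and 1 of the 2 probe sets of Dusp1. On the vehicle 3 h array the 3′ signal of beta-actin exceeded its 5′ signal by 2.83, against 1.53 to 1.98 on the other vehicle arrays and 1.77 to 2.39 on the NaF arrays. That array was the highest of the 4 vehicle arrays for 7 of the 12 phosphatase probe sets, against 32.1% of all probe sets and 44.2% of those that reached 7. The part of this array in the 3 h differences was not tested, and for Dusp1, Dusp5, Dusp6 and Dusp7 they are given both from time-matched vehicle and from the vehicle mean over the 4 arrays.

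The sequences before the transcription start of Dusp1, Dusp5, Dusp6 and Dusp7 (RefSeq, build GRCr8, plus strand) are shown because these genes carry the differences described below. They hold 250 bases each, except that for Dusp6 the start in the promoter table lay 102 bases inside the annotated gene, and only the 148 bases before the gene are shown. Capitals mark the cAMP response element (CRE) TGACGTCA, its half-site TGACG, the CArG box bound by serum response factor, and the E-box CACGTG, each on either strand.
Dusp1, chr10:17184603-17184852: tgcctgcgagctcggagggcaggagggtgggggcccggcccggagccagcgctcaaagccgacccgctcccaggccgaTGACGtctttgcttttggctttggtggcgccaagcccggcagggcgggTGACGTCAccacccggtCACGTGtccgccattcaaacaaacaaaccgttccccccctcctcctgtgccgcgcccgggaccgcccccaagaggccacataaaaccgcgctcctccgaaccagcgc
Dusp5, chr1:262543524-262543773: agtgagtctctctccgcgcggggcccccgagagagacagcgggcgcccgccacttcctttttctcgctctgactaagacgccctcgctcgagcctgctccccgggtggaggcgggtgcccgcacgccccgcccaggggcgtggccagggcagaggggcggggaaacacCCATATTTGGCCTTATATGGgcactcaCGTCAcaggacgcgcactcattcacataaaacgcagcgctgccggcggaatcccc
Dusp6, chr7:35979354-35979501: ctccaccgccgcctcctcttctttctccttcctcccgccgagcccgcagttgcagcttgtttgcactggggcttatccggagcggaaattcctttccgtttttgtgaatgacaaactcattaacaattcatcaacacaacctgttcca
Dusp7, chr8:115887841-115888090: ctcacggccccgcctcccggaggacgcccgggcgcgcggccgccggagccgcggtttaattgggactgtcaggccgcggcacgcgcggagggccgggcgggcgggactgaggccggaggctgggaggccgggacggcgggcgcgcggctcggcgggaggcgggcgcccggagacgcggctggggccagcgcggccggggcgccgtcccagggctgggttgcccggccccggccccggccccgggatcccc

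The motifs were searched in windows of 300 bases, 250 before and 50 after the start given in the promoter table, in 33469 promoters, which included 11 promoters of 9 of the listed genes and none of Dusp4. The Dusp1 window held the full CRE, 124 to 117 bases before the start, a motif found in 1.83% of all windows. Each full CRE also counts as a half-site, and the half-site was found in 21.2% of windows, among them those of Dusp1, Dusp2, Dusp5, Dusp14 and Dusp16. The Dusp5 window held 2 adjoining CArG boxes, 82 to 63 bases before the start, and a CArG box was found in 1.64% of windows. An E-box was found in the windows of Dusp1 and Dusp2 and in 6.42% of all windows. The AP-1 site TGANTCA (7.33% of windows) was found for Dusp14, and the ETS core CCGGAA (15.0%) for Dusp5 and Dusp14. The amino acid response element TGATGNAA (3.98%) was found for no member. The windows of Dusp6 and Dusp7 held none of these motifs, which says only that these letters were not in them.

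Dusp1 and Dusp5, both nuclear, were higher on every NaF array than on any vehicle array. The brighter probe set of Dusp1 had close signals at 3 and 6 h of NaF (10.47 and 10.40), and its dim one was highest at 6 h. Dusp5 had its highest signal at 12 h of NaF. Dusp6, a cytosolic ERK phosphatase, was below time-matched vehicle at 3 h and above it at 6 and 12 h. From the vehicle mean, the 3 h changes of its probe sets were smaller, -0.30, -0.29 and -0.00. Dusp7 lay below every vehicle array at 3 and 6 h and among them at 12 h. Each array read pooled RNA of whole cultures, so fewer cells of a kind and less RNA per cell cannot be told apart.

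**Figure D1:**
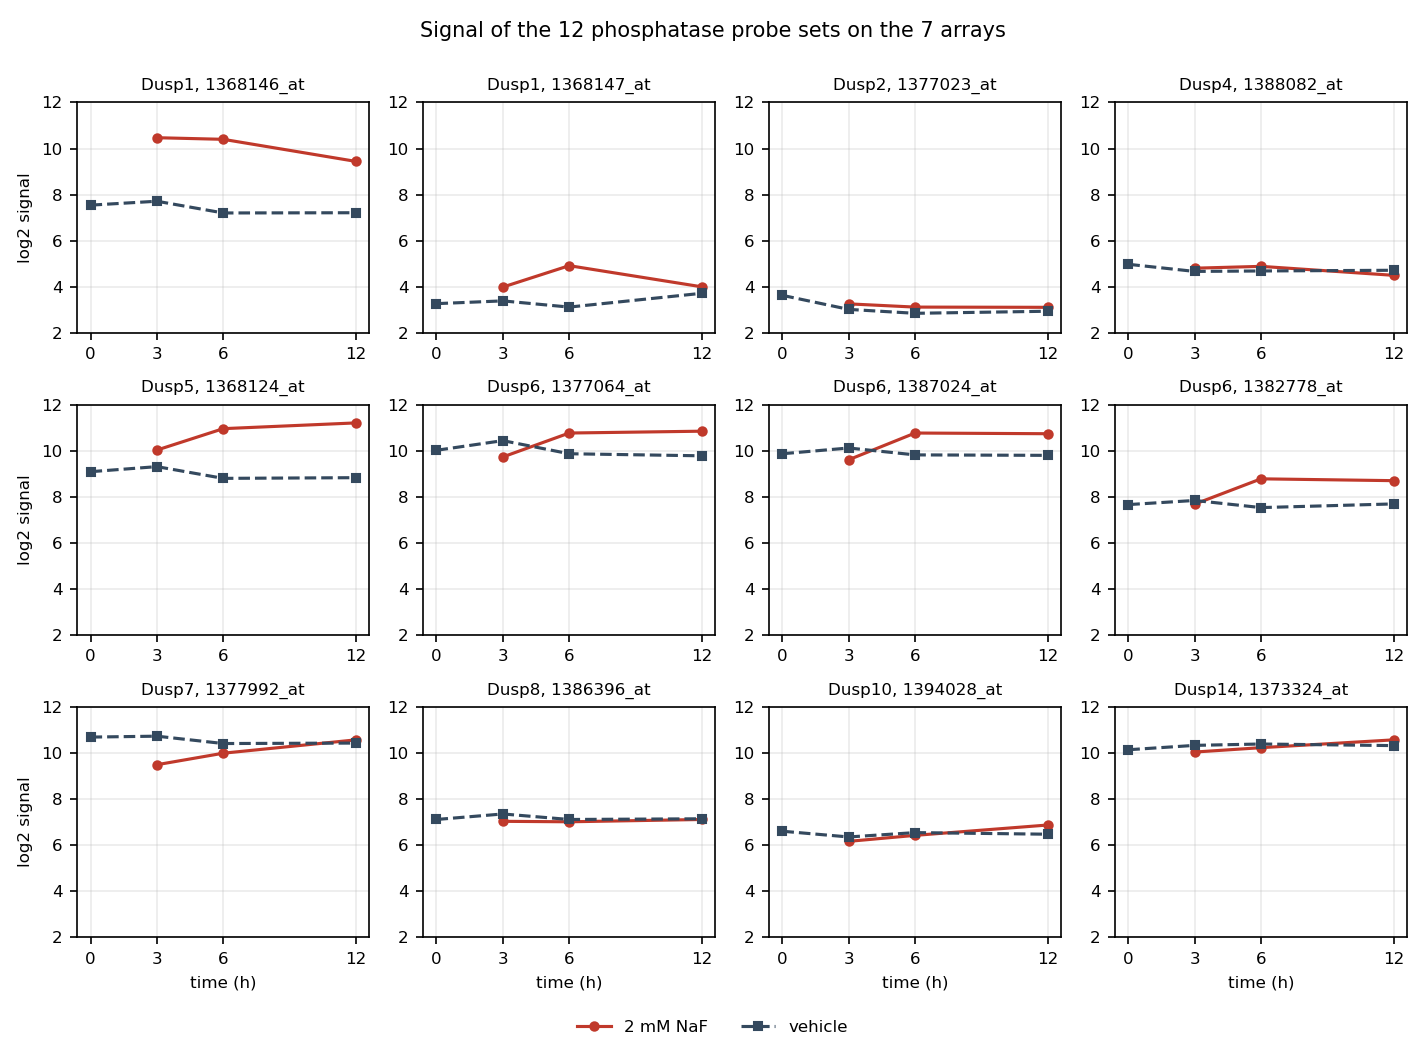
Log2 signal (y axis) of each of the 12 phosphatase probe sets against time in hours (x axis), with 1 point per array, circles for 2 mM NaF and squares for vehicle. Both probe sets of Dusp1 and that of Dusp5 show all 3 NaF points above the 4 vehicle points, and the other 9 overlap.

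The brighter probe set of Dusp1 (1368146_at), which encodes the nuclear phosphatase MKP-1 acting on p38, JNK and ERK, had signals of 10.47, 10.40 and 9.44 at 3, 6 and 12 h of NaF, against 7.54, 7.71, 7.20 and 7.21 at 0, 3, 6 and 12 h of vehicle. The groups did not overlap, and the vehicle arrays averaged 7.42 ± 0.25 (SD, n = 4). Dusp1 exceeded time-matched vehicle 6.76-fold at 3 h, 9.14-fold at 6 h and 4.68-fold at 12 h. These changes were larger than those of 99.98%, 99.97% and 99.7% of all probe sets. In the limma fit, which sets each NaF array against the vehicle mean, it was higher by 3.05 (SE 0.22, adjusted p = 0.0167) at 3 h. It was higher by 2.98 (adjusted p = 0.00401) at 6 h and by 2.02 (adjusted p = 0.00374) at 12 h. The 3 h call was lost when any 1 vehicle array was left out (adjusted p = 0.098 to 0.193), and without any 1 of them no probe set of the table passed at 3 h. The signal at 12 h of NaF was lower than at 3 h of NaF by 1.03 (SE 0.28), which did not pass (adjusted p = 0.0686). That difference passed when dim probe sets were left out or the arrays were rescaled (adjusted p = 0.0138 to 0.0451). The difference does not subtract vehicle, which was also lower at 12 h (7.21) than at 3 h (7.71).

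The other Dusp1 probe set (1368147_at) was dim, with 3.98, 4.91 and 3.99 on the NaF arrays, against 3.26, 3.38, 3.11 and 3.71 on the vehicle arrays. It also did not overlap between treatments. The 27 bacterial control probe sets, which read RNA foreign to the cells, lay between 1.95 and 4.63, so that on every array but that of 6 h of NaF this probe set was not shown to be above background. Its change from time-matched vehicle was 0.60 at 3 h, 1.79 at 6 h and 0.28 at 12 h. Only the 6 h change passed limma (1.54, SE 0.23, adjusted p = 0.0169), and it was lost without the vehicle 0, 3 or 6 h array (adjusted p = 0.0715 to 0.0777).

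Dusp5 (1368124_at), a nuclear phosphatase specific for ERK, had signals of 10.03, 10.96 and 11.21 at 3, 6 and 12 h of NaF, against 9.09, 9.31, 8.80 and 8.83 at 0, 3, 6 and 12 h of vehicle. The vehicle arrays averaged 9.01 ± 0.24 (SD, n = 4), and again no NaF array lay within their range. Dusp5 exceeded time-matched vehicle 1.65-fold at 3 h, 4.48-fold at 6 h and 5.20-fold at 12 h. These changes exceeded those of 99.2%, 99.8% and 99.8% of all probe sets. Its limma change was 1.02 (SE 0.21) at 3 h, which did not pass (adjusted p = 0.114), but did with dim probe sets left out or with quantile normalization (adjusted p = 0.0201 to 0.04). It passed at 6 h with 1.95 (adjusted p = 0.0079) and at 12 h with 2.20 (adjusted p = 0.00268). The 6 h call was lost without the vehicle 6 h array (adjusted p = 0.0564) or the vehicle 12 h array (adjusted p = 0.0515). At 12 h of NaF Dusp5 was higher than at 3 h of NaF by 1.18 (SE 0.27, adjusted p = 0.0415), a call lost without the vehicle 0, 6 or 12 h array (adjusted p = 0.0977 to 0.11) and with 1 variance prior for all signals (adjusted p = 0.0525).

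The other 2 nuclear members were dim. Dusp2 (1377023_at) had 3.25, 3.11 and 3.10 on the NaF arrays, against 3.62, 3.01, 2.84 and 2.93 on the vehicle arrays. Dusp4 (1388082_at) had 4.80, 4.88 and 4.49 on the NaF arrays, against 4.97, 4.66, 4.68 and 4.71 on the vehicle arrays. For both the treatments overlapped, and neither passed limma at any time. Dusp2 lay within the range of the bacterial controls on every array.

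Dusp6, also called MKP-3, was measured by 3 probe sets, which were alike at 6 and 12 h of NaF but differed at 3 h. Probe set 1377064_at had 9.73, 10.77 and 10.85 at 3, 6 and 12 h of NaF, against 10.02, 10.44, 9.87 and 9.78 at 0, 3, 6 and 12 h of vehicle. Probe set 1387024_at had 9.61, 10.77 and 10.74 on the NaF arrays, against 9.87, 10.12, 9.82 and 9.80 on the vehicle arrays. Probe set 1382778_at had 7.68, 8.78 and 8.70 on the NaF arrays, against 7.66, 7.84, 7.53 and 7.69 on the vehicle arrays. In each, the 6 and 12 h NaF arrays lay above all vehicle arrays and the 3 h NaF array did not. At 3 h of NaF, 1377064_at and 1387024_at lay below every vehicle array, and 1382778_at lay among them.

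From time-matched vehicle the 3 probe sets of Dusp6 changed by -0.72, -0.51 and -0.16 at 3 h, by 0.91, 0.95 and 1.26 at 6 h and by 1.08, 0.93 and 1.01 at 12 h. Against the vehicle mean the 3 h values were -0.30, -0.29 and -0.00, and none passed limma. Probe set 1387024_at passed at 6 h (0.87, adjusted p = 0.0175) and at 12 h (0.83, adjusted p = 0.0103), as did 1382778_at (1.11, adjusted p = 0.00868 at 6 h and 1.02, adjusted p = 0.00491 at 12 h). Probe set 1377064_at, whose vehicle arrays spread more widely (10.03 ± 0.30, SD, n = 4), did not pass at 6 h (adjusted p = 0.143) or 12 h (adjusted p = 0.0785). It passed at both times with dim probe sets left out (adjusted p = 0.0371 and 0.0387 at 6 h, 0.0166 and 0.0176 at 12 h) or without the vehicle 3 h array (adjusted p = 0.0491 at 6 h and 0.0236 at 12 h), and at 12 h also with the arrays rescaled (adjusted p = 0.0355 and 0.049). With dim probe sets left out and 1 variance prior together, it passed at 12 h but not at 6 h. Probe set 1387024_at lost its 6 h call without the vehicle 0, 6 or 12 h array (adjusted p = 0.0757 to 0.0912) and its 12 h call without the vehicle 0 or 6 h array (adjusted p = 0.0527 and 0.054). Probe set 1382778_at lost its 6 h call without the vehicle 12 h array (adjusted p = 0.0574).

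Dusp6 was also higher at 12 h than at 3 h of NaF. The difference was 1.13 (SE 0.17, adjusted p = 0.0134) for probe set 1387024_at, a call lost without the vehicle 0, 6 or 12 h array (adjusted p = 0.0525 to 0.0618). It was 1.02 (adjusted p = 0.015) for 1382778_at, lost without the vehicle 0 or 12 h array (adjusted p = 0.0536 and 0.0629). For 1377064_at it was 1.13 and did not pass (adjusted p = 0.08), but did without the vehicle 3 h array (adjusted p = 0.0346), with dim probe sets left out (adjusted p = 0.0162 to 0.03) and with quantile normalization (adjusted p = 0.0341).

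Dusp7 (1377992_at), the other cytosolic ERK phosphatase, had 9.49, 9.99 and 10.57 at 3, 6 and 12 h of NaF, against 10.69, 10.73, 10.41 and 10.43 at 0, 3, 6 and 12 h of vehicle. The 3 and 6 h NaF arrays lay below every vehicle array and the 12 h NaF array lay among them. Dusp7 was 2.37-fold lower than time-matched vehicle at 3 h and 1.34-fold lower at 6 h, and 1.10-fold higher at 12 h. At 3 h, 0.280% of all probe sets had a lower change. In limma the 3 h change of -1.08 (SE 0.15) had an adjusted p of 0.0542 and the 6 h change of -0.58 one of 0.0725, so neither passed. Both passed when dim probe sets were left out or the arrays were rescaled (adjusted p = 0.00518 to 0.0265 at 3 h and 0.0145 to 0.0485 at 6 h). Dusp7 was higher at 12 h than at 3 h of NaF by 1.08 (SE 0.19, adjusted p = 0.0215), a call lost without any 1 vehicle array (adjusted p = 0.0506 to 0.0648).

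Of the JNK- and p38-directed members, Dusp8 (1386396_at) had 7.03, 7.01 and 7.11 on the NaF arrays, against 7.11, 7.35, 7.11 and 7.14 on the vehicle arrays. Dusp10 (1394028_at), also called MKP-5, had 6.16, 6.42 and 6.87 on the NaF arrays, against 6.60, 6.35, 6.54 and 6.47 on the vehicle arrays. Neither passed limma against vehicle at any time. Dusp10 was higher at 12 h than at 3 h of NaF by 0.71 (SE 0.15, adjusted p = 0.032), which was lost without the vehicle 6 or 12 h array (adjusted p = 0.0976 and 0.0912).

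The atypical member Dusp14 (1373324_at) had 10.04, 10.23 and 10.57 on the NaF arrays, against 10.14, 10.33, 10.39 and 10.32 on the vehicle arrays. The treatments overlapped, with the 12 h NaF array the highest of all 7. Its 12 h change against the vehicle mean was 0.28 (adjusted p = 0.11), and it passed with dim probe sets left out (adjusted p = 0.0359 and 0.0368) or without the vehicle 0 h array (0.23, adjusted p = 0.0423). With dim probe sets left out and 1 variance prior together, this change did not pass. Between 12 h and 3 h of NaF it differed by 0.54 (SE 0.13, adjusted p = 0.0444), which was lost without the vehicle 3, 6 or 12 h array (adjusted p = 0.103 to 0.122) and with 1 variance prior (adjusted p = 0.0654).

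**Figure D2:**
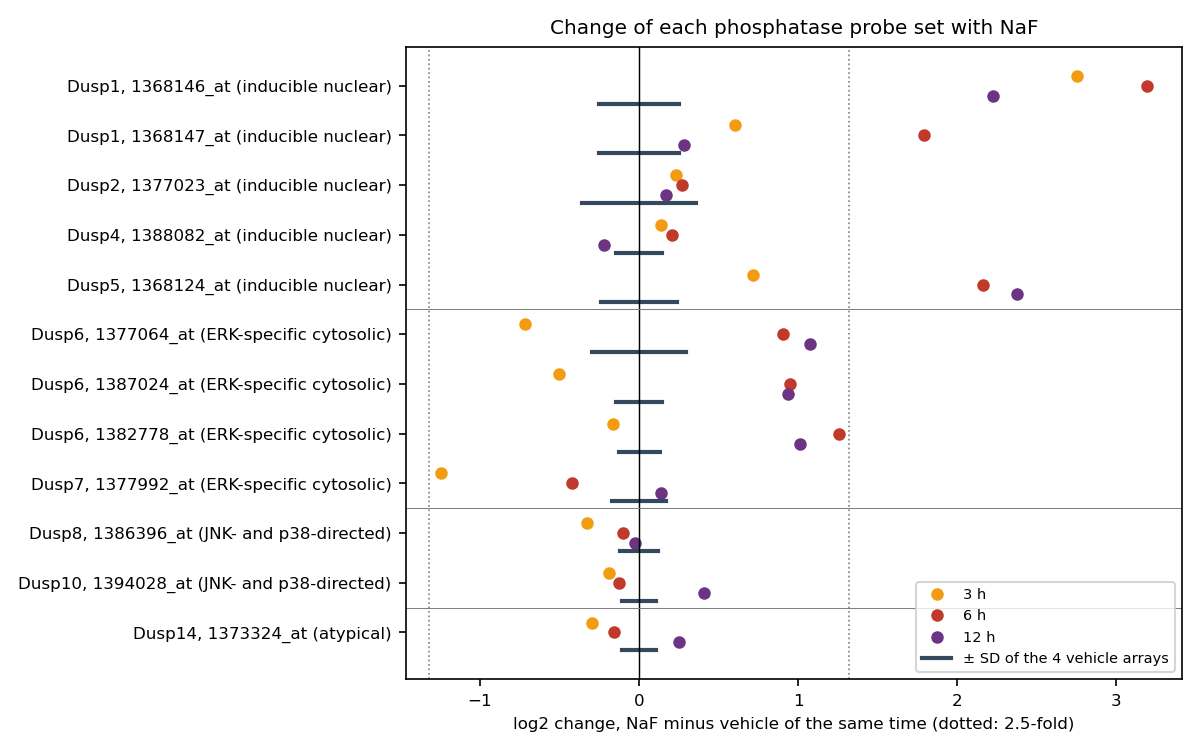
Log2 change of each phosphatase probe set, NaF minus time-matched vehicle (x axis), with a point for 3, 6 and 12 h, grouped by place and substrate. Bars show ± SD of the 4 vehicle arrays and dotted lines 2.5-fold. At 3 h the nuclear probe sets lie at 0.14 to 2.76 and the cytosolic ones at -1.24 to -0.16, and at 6 and 12 h the groups overlap. Dusp8, Dusp10 and Dusp14 lie at -0.33, -0.19 and -0.29 at 3 h, within the cytosolic range. The lowest nuclear points at 3 h are those of the dim Dusp4 and Dusp2.

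Set side by side, the 5 nuclear probe sets changed by 0.14 to 2.76 at 3 h (median 0.60), and the 4 ERK-specific cytosolic ones by -1.24 to -0.16 (median -0.61). Dusp8, Dusp10 and Dusp14, of neither group, changed by -0.33, -0.19 and -0.29 at 3 h, so a fall was not particular to the cytosolic group. From the vehicle mean, the 3 h changes were 0.04 to 3.05 for the nuclear and -1.08 to -0.00 for the cytosolic probe sets. The lowest nuclear changes from time-matched vehicle at 3 h were 0.14 for Dusp4 and 0.23 for Dusp2. Both are dim, and both changes lay within the SD of their vehicle arrays (0.15 and 0.36). The vehicle 3 h array was the highest vehicle array for every cytosolic probe set. At 6 h the nuclear probe sets ranged from 0.20 to 3.19 (median 1.79) and the cytosolic ones from -0.42 to 1.26 (median 0.93). At 12 h the ranges were -0.22 to 2.38 (median 0.28) for the nuclear and 0.14 to 1.08 (median 0.97) for the cytosolic probe sets. The nuclear medians at 3, 6 and 12 h are the values of the dim Dusp1 probe set. With each gene read by its brightest probe set, the medians were 0.47, 1.22 and 1.20 at 3, 6 and 12 h for the 4 nuclear genes and -0.98, 0.24 and 0.61 for the 2 cytosolic genes, so that the order of the groups at 12 h was turned. The median over all probe sets of the table was 0 at each time. Probe sets of 1 gene are not independent, and the difference between the groups was not tested.

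A change of 2.5-fold or more above time-matched vehicle was seen for 1 of 12 phosphatase probe sets at 3 h (0.151% of all probe sets), 3 at 6 h (0.715%) and 2 at 12 h (1.38%), each of Dusp1 or Dusp5. No phosphatase probe set was 2.5-fold lower, against 0.229%, 0.680% and 1.16% of all probe sets at 3, 6 and 12 h. At 2-fold, 1, 4 and 4 were higher at 3, 6 and 12 h (0.316%, 1.38% and 2.79% of all), with Dusp6 joining at 6 and 12 h. At 2-fold, 1, 0 and 0 were lower (0.619%, 1.74% and 2.83% of all), the 1 being Dusp7 at 3 h. With limma, 1 probe set was higher at 3 h (0.412% of all), 5 at 6 h (5.79%) and 4 at 12 h (12.7%). None passed as lower, against 0.966%, 7.75% and 13.4% of all. At an unadjusted p under 0.05, without regard to direction, there were 6, 7 and 8 of 12 phosphatase probe sets at 3, 6 and 12 h, against 15.0%, 27.0% and 36.4% of all. Between 12 h and 3 h of NaF, 6 probe sets of 5 genes were higher (9.28% of all) and 0 lower (8.96%), with 8 at an unadjusted p under 0.05 (31.0% of all). All 3 NaF arrays lay above all 4 vehicle arrays for 3 probe sets (8.10% of all), and below for 0 (7.86%). When the 3 NaF arrays were fitted as 1 group, Dusp1 (2.68, SE 0.26, adjusted p = 0.00521) and Dusp5 (1.72, SE 0.27, adjusted p = 0.0272) passed, 2 of 12 against 1.19% of all, and 0 were lower (0.734% of all). At an unadjusted p under 0.05 there were 5 (18.7% of all). With time as a block, over 3 NaF and 3 vehicle arrays, neither passed (2.73, adjusted p = 0.106 and 1.75, adjusted p = 0.168) and 0 of 31042 probe sets were higher or lower in limma, with 4683 at an unadjusted p under 0.05, 4 of them of the family. Dusp5 was also lost without any 1 vehicle array or the NaF 6 h array (adjusted p = 0.0877 to 0.135).

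**Figure D3:**
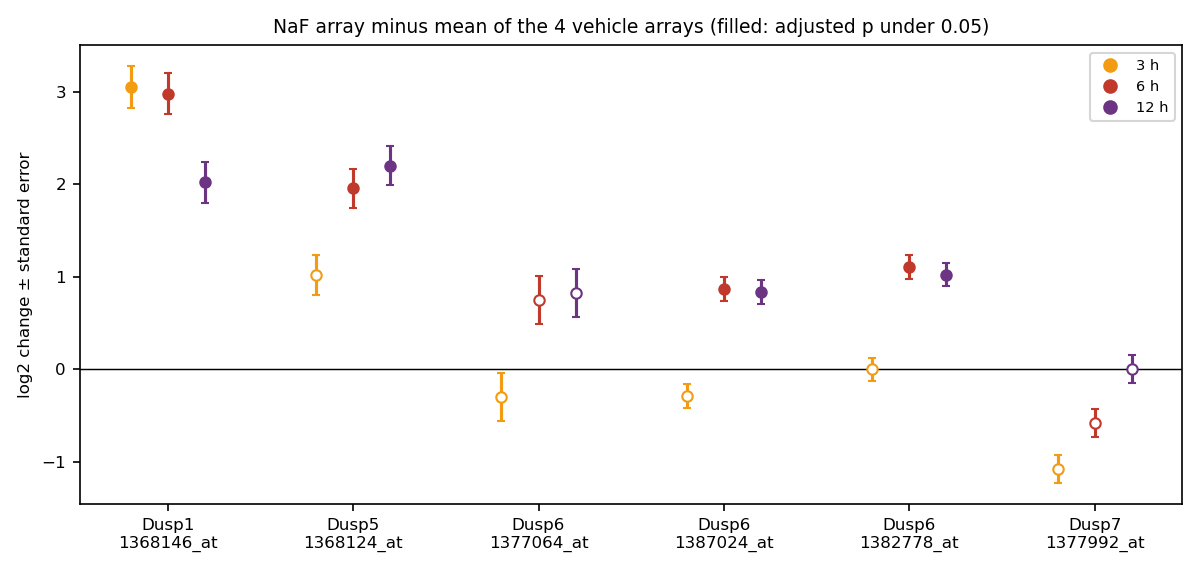
Log2 change (y axis) of the NaF array at 3, 6 and 12 h from the vehicle mean (4 arrays), ± standard error from limma, for 6 phosphatase probe sets (x axis). Filled points have an adjusted p under 0.05. Dusp1 is filled at every time, Dusp5 at 6 and 12 h, and Dusp7 at none.

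The pathway around these phosphatases was described by lists of genes, each gene by its brightest probe set. Changes given for single genes are from time-matched vehicle, and adjusted p-values come from the limma fit to the vehicle mean. Of 11 MAP kinase genes measured, 0 passed limma at 3 h, 2 were lower at 6 h, and 1 was higher and 2 lower at 12 h. Mapk14, which encodes p38 alpha, was lower than time-matched vehicle by 0.96 at 6 h (adjusted p = 0.00486). Of 17 upstream kinases, 0 passed at 3 h. At 6 h, 2 were higher and 2 lower, and at 12 h there were 1 higher and 6 lower. Map3k3 was among those lower at both times, by 0.83 at 6 h (adjusted p = 0.00542) and 0.84 at 12 h (adjusted p = 0.00348). Of 9 kinases activated by MAP kinases, 0 passed at 3 h, 1 was lower at 6 h, and 1 was higher and 3 lower at 12 h. Mknk2, which phosphorylates the translation factor eIF4E, was lower by 1.44 at 12 h (adjusted p = 0.00107).

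Of 9 other feedback inhibitors of ERK signaling, 1 was higher at 3 h, 1 higher and 1 lower at 6 h, and 2 higher at 12 h. Errfi1, an inhibitor of the EGF receptor, was higher than time-matched vehicle by 1.47, 2.24 and 2.29 at 3, 6 and 12 h (adjusted p = 0.0209, 0.00342 and 0.00132). Spry2 had changes of -0.92, -0.08 and 0.68 and did not pass. Of 20 early genes that respond to ERK, higher counts were 5, 8 and 7 at 3, 6 and 12 h, and lower counts 2, 2 and 3. Egr2 was higher by 4.49, 3.58 and 1.16 (adjusted p = 0.0124, 0.00276 and 0.0226). Myc was lower by 2.11 at 3 h (adjusted p = 0.016) and higher by 1.01 at 12 h (adjusted p = 0.0092). Of 20 other dual specificity or MAP kinase phosphatases, 0 passed at 3 h, and 3 passed as higher and 1 as lower at 6 h. At 12 h, 3 passed as higher and 3 as lower. Dusp11, a phosphatase of RNA, was higher by 1.00 at 12 h (adjusted p = 0.000952) and Dusp12 by 0.89 (adjusted p = 0.00155), and Dusp22 was lower by 0.67 (adjusted p = 0.00159). Over all 14217 named genes, higher shares were 0.549%, 7.50% and 16.0% at 3, 6 and 12 h, and lower shares 1.36%, 10.8% and 18.7%. Of these named genes 7835 reached a log2 signal of 7, against 18 of the 20 early genes. The part of brightness in the shares was not tested.

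**Figure D4:**
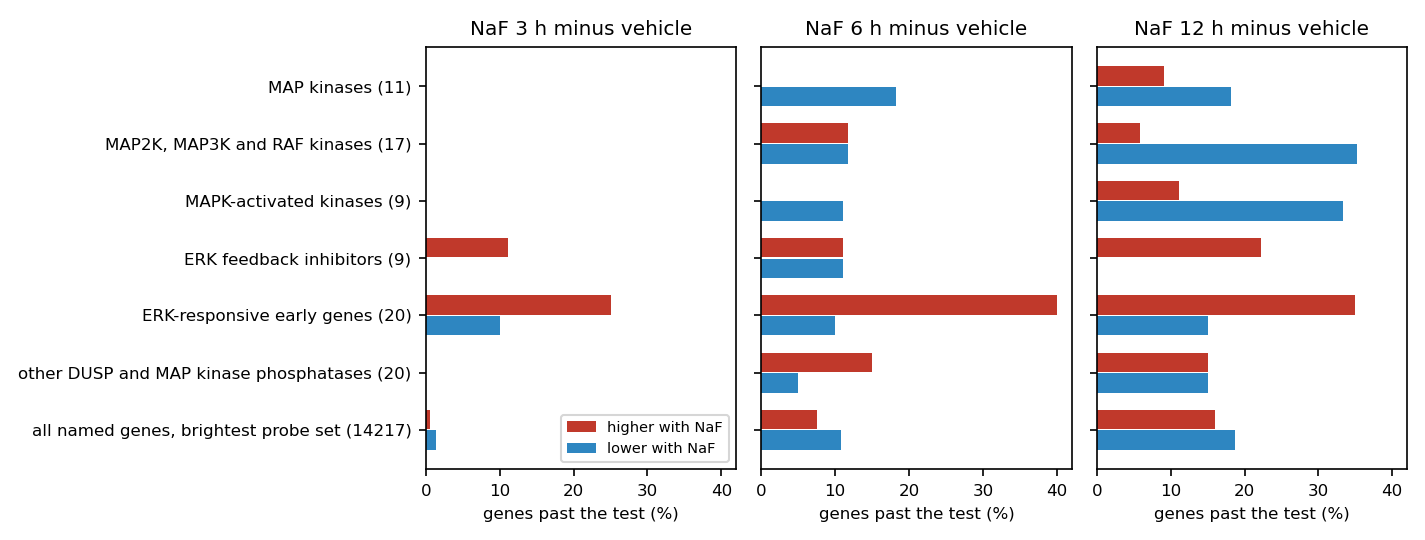
Percent of the genes of each list (x axis) that were higher or lower with NaF in limma at 3, 6 and 12 h, with the number of genes measured in parentheses and all named genes at the bottom. Of the early genes that respond to ERK, 25%, 40% and 35% were higher at 3, 6 and 12 h.

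Likeness between genes was read from the brightest probe set of each, 1368146_at for Dusp1 and 1377064_at for Dusp6. The genes closest to Dusp1 in their 3 changes from time-matched vehicle, by Euclidean distance among 7834 genes, were Atf3 (distance 0.621), H4cl1 (0.709), Fos (1.06) and LOC102549836 (1.09). Atf3, a stress-induced transcription factor, changed by 3.19, 3.50 and 2.55. Those closest to Dusp6 were Tiparp (0.403), Hlx (0.478), Zfp84 (0.479) and Usp27x (0.522). They are neighbours of 1377064_at, which changed by -0.72 at 3 h, against -0.51 for 1387024_at and -0.16 for 1382778_at. Tiparp changed by -0.70, 0.64 and 0.78 and Hlx by -0.29, 1.11 and 1.12. These distances describe 3 values a gene and carry no test. Gapdh, read from the 3′ control probe set of the array, changed by 0.10, 0.10 and 0.01. Its 5′ control probe set changed by 0.23, 0.07 and 0.02 and its middle one by 0.14, 0.07 and 0.002. The 5′ probe set read 12.68 on the vehicle 3 h array, against 12.97 to 13.08 on the other vehicle arrays.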

How the data were processed

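Gene expression was measured on 7 arrays, each with the pooled RNA of 3 independent experiments. The authors made biotin-labeled cRNA, hybridized it and read the scans in GeneSpring GX. The deposited values are log2 signals per probe set, used unchanged. How signals were summarized and normalized is not given in the sources used here. An array labelled as control was placed at 0 h from the study's methods. Of 31099 probe sets, 57 array controls were left out. Of the rest, 20826 had 1 symbol in a platform annotation of 2016, 436 several and 9780 none, and only those with 1 were used to name genes.

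Differences from time-matched vehicle carry no test. limma 3.58.1 in R 4.3.3 (lmFit, eBayes with an intensity trend, Benjamini-Hochberg over all probe sets, adjusted p under 0.05) set each NaF array against the 4 vehicle arrays, with 3 residual and 2.02 prior degrees of freedom. Each NaF array, being single, was given the spread of the vehicle arrays, which includes their different times and may be technical, so the number of arrays limits the precision. A further fit took the 3 NaF arrays as 1 group. The fits were tested on simulated data in which every array was given the vehicle spread. Such data cannot test whether a NaF array varies like the vehicle arrays. Python 3.11.15, pandas 2.3.3 and matplotlib 3.10.9 were used for the other steps. Promoters are from RefSeq (GRCr8).

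The text names every probe set of the family, up to 4 members of each pathway list with the largest change at any time, the 4 genes closest to Dusp1 and to Dusp6 among those with a signal of 7 or more, and Gapdh. The members and lists were chosen with earlier results of these data known. Alternatives were another variance prior, filters on dim probe sets, other scalings, a 2-fold threshold, other baselines, each array left out, time as a block and averaging the probe sets of each gene. The filter together with 1 variance prior was added after seeing the data.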

Additional observations from a re-analysis of the deposited data

Results flagged for a closer look

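For Dusp4, the vehicle 0 h array lay apart from the other vehicle arrays, with a gap of 0.85 of the range of the 4 arrays. For Dusp8, the vehicle 3 h array lay apart, with a gap of 0.893 of the range. Both gaps exceed the limit of Dixon's test for 4 samples, which chance passes in about 1 in 20 groups. The 4 vehicle arrays are of different times and not replicates, so this rate need not hold for them. The share of all probe sets past this limit is not given here.

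The difference between 12 h and 3 h of NaF, which does not subtract vehicle of the same times, passed limma for 6 probe sets, all higher at 12 h. Each of these calls was lost without 1 or more of the vehicle arrays. The difference was 1.18 for Dusp5, 1.13 and 1.02 for probe sets 1387024_at and 1382778_at of Dusp6, 1.08 for Dusp7, 0.71 for Dusp10 and 0.54 for Dusp14.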

How the results depend on the processing

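Dusp1 (1368146_at) at 6 and 12 h, and Dusp5 and Dusp6 (1382778_at) at 12 h, passed under every alternative run. With probe sets of a highest or mean signal of 7 or more, with quantile normalization, or with the added filter and prior, 2 phosphatase probe sets were higher at 3 h. Under these settings and with array medians set equal, 1 was lower at 3 h and 1 at 6 h, both Dusp7, and 1 lower between 12 h and 3 h of NaF, which was Dusp1. Leaving out 1 array gave 0 to 0 higher at 3 h, 2 to 5 at 6 h, 0 to 5 between 12 h and 3 h, and 1 to 6 for all NaF arrays together (6 without the NaF 3 h array), where 0 to 1 were lower. Time was the only pairing of the arrays. With time as a block 0 phosphatase probe sets, and 0 of all 31042 in either direction, passed. At 2-fold, 1 was lower at 3 h (0.619% of all probe sets) and 4 higher at 12 h (2.79%). With the probe sets of each gene averaged, 1 gene was 2.5-fold higher at 12 h.

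Signs turned for 4 values. Dusp6 (1382778_at) at 3 h was 0.015 with medians set equal, 0.026 with quantile normalization and -0.052 to 0.052 without 1 vehicle array. Dusp7 at 12 h was -0.033 with quantile normalization and -0.051 to 0.057 without 1 vehicle array. At 12 h, Dusp2 was 0.17 from time-matched vehicle and -0.0047 from the vehicle mean, and Dusp8 was -0.026 from time-matched vehicle and 0.00099 with quantile normalization. The cause was not tested. In the whole table, 128 probe sets passed as higher and 300 as lower at 3 h, against 375 and 795 with a highest signal of 7 or more, 73 and 150 with 1 variance prior, 217 and 414 with medians set equal, and 373 and 662 with quantile normalization. Leaving out 1 vehicle array brought the probe sets passing at 3 h to 0 in both directions, with 3403 to 5603 at an unadjusted p under 0.05. It brought those passing as higher at 6 h to 244 to 1164, against 1796, at 12 h to 2290 to 3494, against 3951, between 12 h and 3 h of NaF to 945 to 2596, against 2881, and those of all NaF arrays together to 28 to 46, against 370. That count was 1761 without the NaF 3 h array, 45 without the NaF 6 h array and 562 with a highest signal of 7 or more. The number of arrays limits what could be detected.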
